A study of Mus musculus with 40 samples.

Results

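The genes described here are 7 Src family tyrosine kinases (Lyn, Blk, Fyn, Fgr, Lck, Yes1 and Src), the Syk family kinase Zap70 and the adaptor Lat. They were chosen by gene name, after removing the suffixes that the files add to some names, and all 9 were found among the 24732 genes of each file. Their levels are given as TPM, the authors' expression unit, which is scaled to gene length and library total, in 28 RNA-seq libraries from follicular B cells sorted from mice. Every mouse carried the MD4 transgene, whose B cell receptor binds hen egg lysozyme (HEL), and the study compared cells that had or lacked Ikaros (gene Ikzf1), a zinc finger transcription factor of lymphocytes.

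Ikaros was deleted by a Cre recombinase driven from Cd23, a gene of mature B cells. Group names below are followed by their genotypes. Library series is a grouping made here from the leading digits of the library numbers, and it may not be a batch. The CpG loss group (Cd23-cre Ikzf1(fl/-), n = 4) and the CpG control group (Cd23-cre Ikzf1(fl/+), n = 4) were cultured for 1 day with CpG, a DNA ligand of Toll-like receptor 9, and form library series 49. The naive loss group (Cd23-cre Ikzf1(fl/-), n = 2) and the naive control group (Cd23-cre Ikzf1(fl/+), n = 2) form series 36. Anergic cells (n = 3) of series 57 came from mice that also carried ML5, a transgene for soluble HEL, and had Ikzf1(fl/fl), Ikzf1(fl/+) and, in replicate 3, Cd23-cre Ikzf1(fl/+). The HEL loss group (Cd23-cre Ikzf1(fl/fl), n = 5) and the HEL control group (Ikzf1(fl/fl) without Cre, n = 5) came from mice injected with HEL 1 day earlier, so Cre and the loss of Ikaros cannot be told apart in that comparison. The naive libraries of series 57 (n = 3) were Ikzf1(fl/+) in replicates 1 and 2 and Cd23-cre Ikzf1(fl/+) in replicate 3. All HEL libraries also belong to series 57, and the labels do not say whether the replicates of a group were separate animals.

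Src family kinases are held at the inner face of the cell membrane, where they phosphorylate the tyrosine motifs (ITAMs) of antigen receptors. Lyn, Blk and Fyn do this for the B cell receptor, and Lyn also phosphorylates the inhibitory motifs of co-receptors that restrain it. In T cells Lck has the same first step at the T cell receptor, Zap70 then binds the phosphorylated chains, and Lat is the membrane scaffold that Zap70 phosphorylates. In B cells Syk takes the place of Zap70, and Lat2 and Blnk take that of Lat.

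Recovered read totals ran from 12126702 to 25424364 per library. Ikzf1 itself was lower in every loss library than in every control of its comparison: it averaged 67.7 ± 7.2 TPM in HEL loss and 215 ± 26.5 TPM in HEL control libraries (SD, n = 5 each). The 10 B cell markers were all detected in every group, with a summed level of 2448 to 4678 TPM in the CpG libraries and 15547 to 20381 TPM in the others. This sum was lower in every HEL loss library (15547 to 16781 TPM) than in any HEL control (17113 to 18199 TPM). It was also lower in naive loss libraries (17781 to 18832 TPM) than in naive controls of series 36 (19215 to 19265 TPM). Cd37, among the 10, went the other way after HEL, at 3254 to 3583 TPM in loss and 2605 to 2740 TPM in control libraries. The part of this shift in the Blk and Lyn values was not tested. The marker sums of T cells and of NK and cytotoxic cells were lower outside series 36. Of 18 T cell markers 15 were in the files (1 of the 18, Themis, is also on a pathway list below), and their sum was 0.187 to 3.38 TPM in the CpG, HEL, anergic and series 57 naive libraries, against 10.7 to 39.7 TPM in the 4 naive libraries of series 36. The sum of 10 NK and cytotoxic markers was 58.0 to 91.7 TPM in those 4 libraries, all 10 being detected, and 2.23 to 26.3 TPM in the others. NK cells are also known to use Lck, Zap70 and Lat. Ccl5 was the largest part of the sum in series 36, at 31.7 to 50.5 TPM. Gzma, a granzyme of NK and cytotoxic T cells, was 8.20 to 20.1 TPM in series 36, against 0 in all series 57 libraries and 0.952 TPM at most in CpG libraries. Not all markers on this list went that way. Prf1 was 9.45 to 15.3 TPM in series 36, 15.9 to 22.6 TPM in anergic and 13.4 to 18.2 TPM in series 57 naive libraries. Klrd1 overlapped, at 0.112 to 0.462 TPM in series 36 and 0.298 to 0.525 TPM in anergic libraries. By both sums and by Gzma, the 4 libraries of series 36 stand apart. They were tested only against each other, but they enter the likeness over 28 libraries below. The part of T and NK cell RNA in their member values was not tested. Fewer cells of a type and less RNA per cell cannot be told apart in such bulk samples.

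Outside the CpG libraries, Blk and Lyn had the highest and Yes1 and Src the lowest mean TPM of the 9 genes in all 6 groups. In naive libraries of series 57 the mean levels ran, from high to low, in the order Blk (325 TPM), Lyn (216 TPM), Fgr (44.1 TPM), Fyn (30.3 TPM), Lck (11.8 TPM), Zap70 (7.35 TPM), Lat (2.14 TPM), Src (0.320 TPM) and Yes1 (0.167 TPM). In anergic libraries the order was Blk, Lyn, Lck, Fyn, Fgr, Zap70, Lat, Src and Yes1, so Lck stood at rank 3. Neighbours in these orders whose libraries overlapped were Lck and Zap70 in the naive group and Fyn and Fgr in the anergic group. In CpG control libraries Lyn led with 155 TPM, followed by Fyn with 40.3 TPM and Blk with only 27.1 TPM. CpG cells differ from the others in stimulus, culture and library series at once, so no test was made between them and freshly sorted cells.

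**Figure D1:**
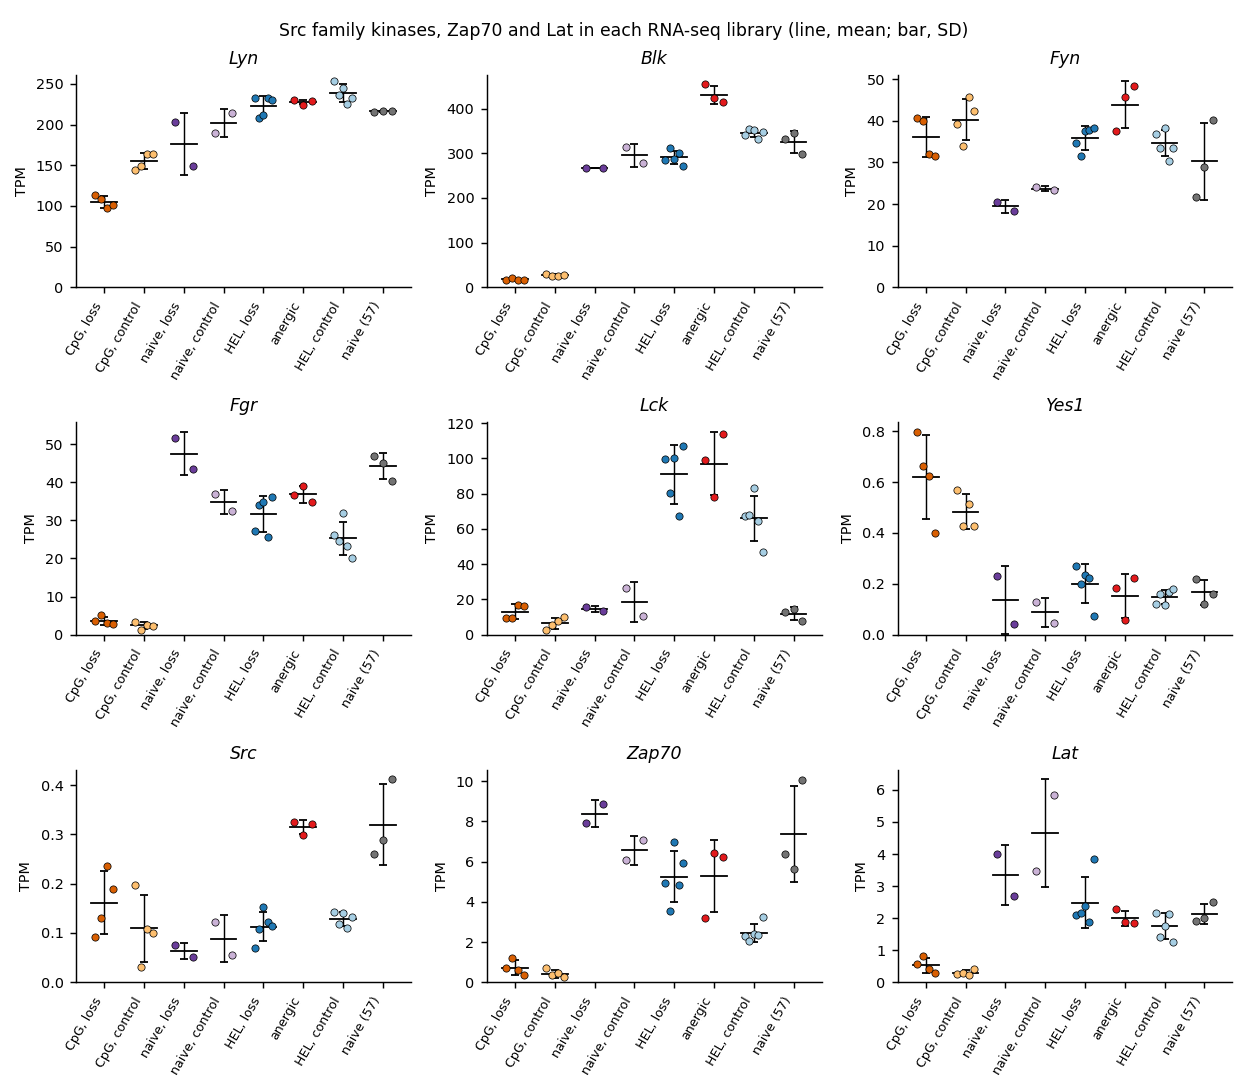
TPM of the 9 genes (y axes, each with its own scale from 0) in every RNA-seq library of the 8 groups (x axes), with 1 point per library, a line at the mean and a bar for the SD. Lck sits between 46.6 and 114 TPM in the 13 HEL and anergic libraries and at 26.4 TPM or lower in all others, and Blk lies at 29.9 TPM or lower in the CpG libraries.

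The balance among the 7 kinases can be read as each one's share of the summed TPM of Lyn, Blk, Fyn, Fgr, Lck, Yes1 and Src. Lck made up 13.5% of the sum in HEL loss, 11.6% in anergic and 9.25% in HEL control libraries, against 1.87% in naive libraries of series 57. Fgr held 4.40% in anergic, 3.54% in HEL control and 7.03% in the same naive libraries. After CpG, Lyn held 59.7% in loss and 66.9% in control libraries, and Fyn 20.5% in loss and 17.3% in control libraries.

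**Figure D2:**
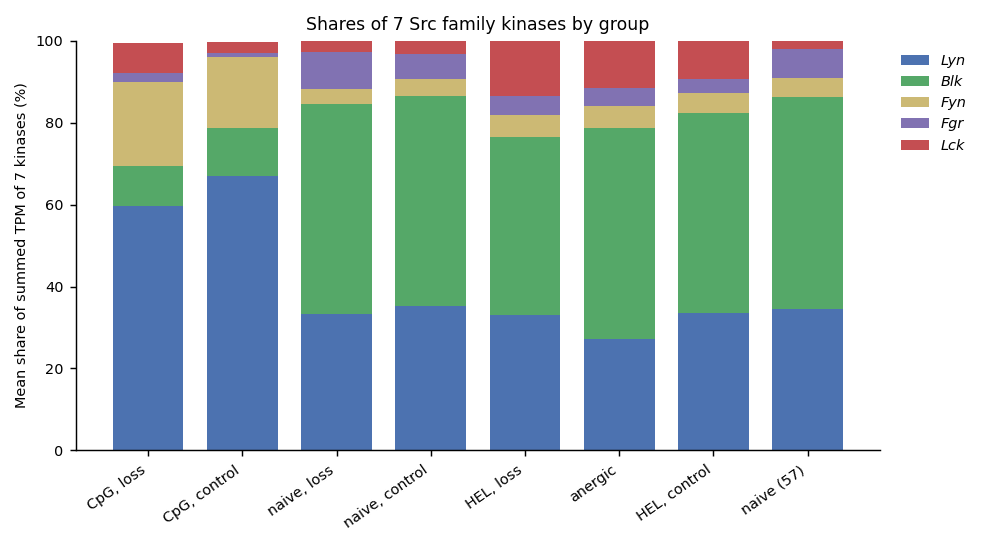
Mean share (y axis, percent) of the summed TPM of the 7 Src family kinases that 5 of them held in the 8 groups (x axis); Yes1 and Src are too small to draw. Lck widens in the HEL and anergic bars, and Blk shrinks to 9.80% in CpG loss and 11.7% in CpG control libraries.

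Differences were tested with limma on log2(TPM + 1), across all genes with at least 1 TPM in enough libraries, and a gene was called at a Benjamini-Hochberg adjusted p under 0.05. Yes1 and Src passed this filter in no comparison, and Zap70 and Lat did not pass it among the CpG libraries, which leaves 5 members tested there and 7 elsewhere. With loss of Ikaros after HEL, 2 members were called higher and 1 lower, where 12.9% of all 10258 genes were called higher and 24.1% lower. With loss of Ikaros after CpG, 2 of 5 members were called lower and 0 higher, where 9.14% of all genes were called higher and 5.8% lower. In naive cells loss of Ikaros gave 0 calls among the members, both in limma and with voom on recovered reads. In limma 1 member, Fgr, had an unadjusted p under 0.05, and of all genes 0.0199% were called higher and 0% lower. Ikzf1 itself was not called there (ratio of means 0.480, log2 difference -1.05 ± 0.17, limma adjusted p = 0.0859). With 2 libraries per group, 0 calls therefore do not show that loss had no effect. Between anergic and naive cells, 2 members were called higher, against 4.48% of all genes higher and 2.89% lower. Between HEL control and naive cells, 1 member was called higher and 2 lower, against 9.92% of all genes higher and 38.1% lower. Between anergic and HEL control cells, 5 members were called higher, but 36.8% of all genes were also called higher and 5.39% lower. The test of the difference between the CpG and HEL effects of Ikaros loss called 2 members lower, against 15.2% of all genes higher and 7.19% lower. That test sets unlike contrasts side by side: Cd23-cre Ikzf1(fl/-) against Cd23-cre Ikzf1(fl/+) in cultured cells of series 49, and Cd23-cre Ikzf1(fl/fl) against Ikzf1(fl/fl) without Cre in injected mice of series 57. Stimulus, genotype, Cre, culture and series therefore cannot be told apart in it.

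The median log2 difference of all genes was 0.23 between anergic and HEL control cells, -0.16 between HEL control and naive cells and -0.12 for naive loss. Members in those comparisons are to be read against these shifts. In the other comparisons the median lay between -0.08 and 0.08. Naive and HEL control libraries of series 57 each serve in more than 1 comparison, so those comparisons share libraries. HEL controls were all Ikzf1(fl/fl) without Cre, whereas replicate 3 of the anergic and of the naive group was Cd23-cre Ikzf1(fl/+). Comparisons with HEL controls therefore mix antigen exposure with genotype. A fit without Cre libraries was made only between anergic and naive cells.

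**Figure D3:**
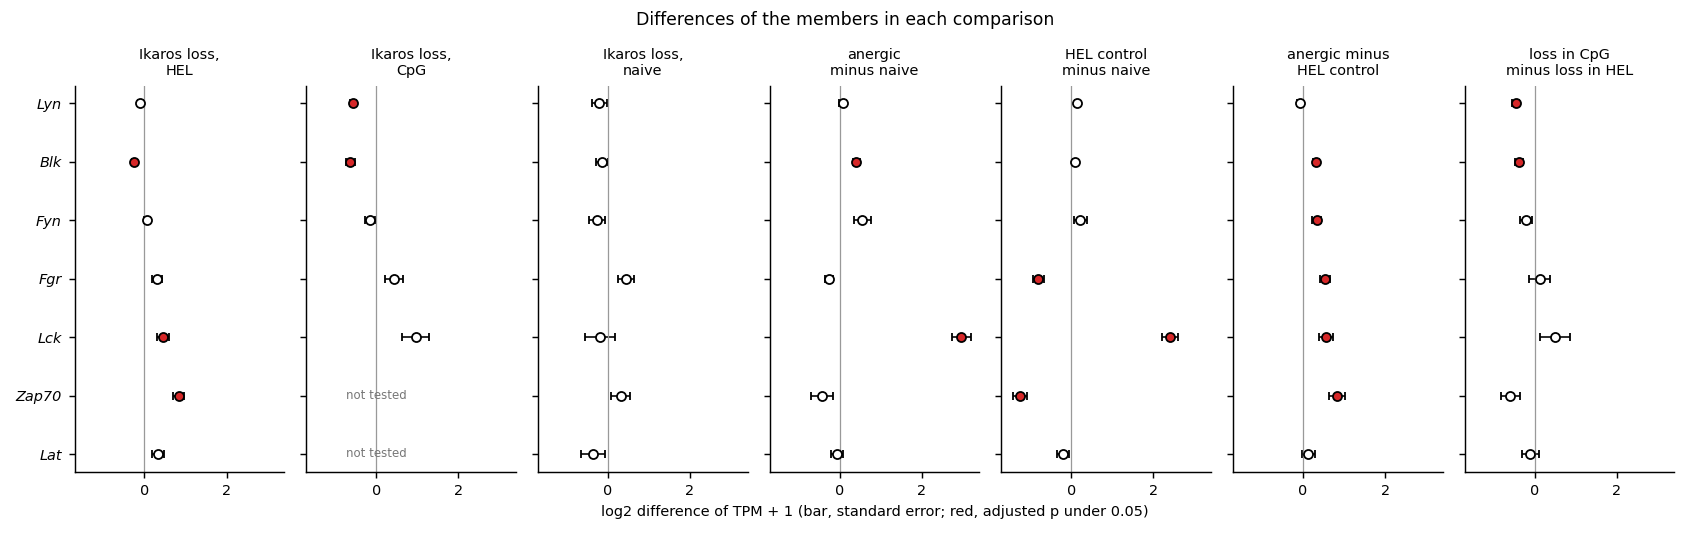
Log2 difference of TPM + 1 (x axes, bars are standard errors) for 7 members (rows) in 7 comparisons (panels), filled red where the adjusted p was under 0.05. Lck stands at 2.96 between anergic and naive cells and at 2.40 between HEL control and naive cells, beyond every other point.

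Lck, the kinase that starts T cell receptor signalling, was far more abundant in B cells that had met HEL than in naive B cells. It measured 99.1, 78.2 and 114 TPM in anergic libraries, against 13.1, 14.8 and 7.68 TPM in naive libraries of series 57. HEL control libraries held 67.5, 68.0, 83.0, 64.2 and 46.6 TPM. Neither antigen-exposed group overlapped the naive one. The ratio of means was 8.19 for anergic cells (log2 difference 2.96 ± 0.23, limma adjusted p = 0.000447) and 5.56 for HEL control cells (2.40 ± 0.20, adjusted p = 2.12e-05).

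That rise came with almost no Cd3e, the gene of a signalling chain that every conventional T cell uses. Among the 13 HEL and anergic libraries, 11 had 0 Cd3e reads and the other 2 had 1 read each, while Lck was 46.6 to 114 TPM. Over all groups, 20 libraries had 0 Cd3e reads, and the limit of 3 reads that a count of 0 allows corresponds to 0.143 to 0.321 TPM. This limit covers counting error only. The libraries with the most Cd3e, by contrast, had little Lck. Naive control replicate 2 of series 36 had 53 Cd3e reads (3.97 TPM) and 10.6 TPM of Lck, and over the 4 libraries of that series Lck was 10.6 to 26.4 TPM.

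**Figure D4:**
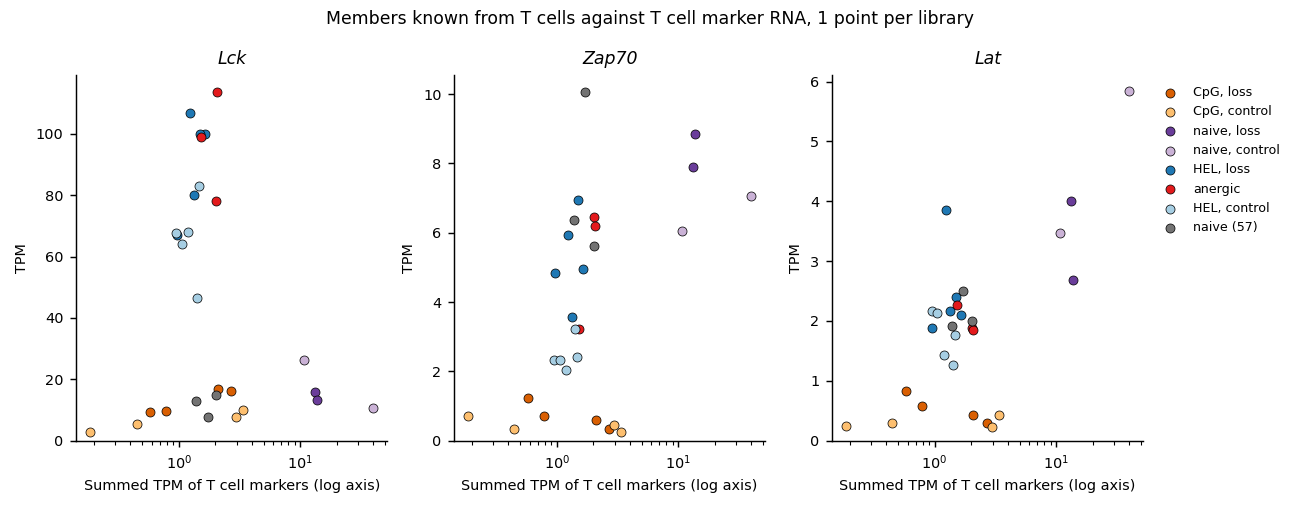
TPM of Lck, Zap70 and Lat (y axes from 0) against the summed TPM of 15 T cell markers (x axes, log scale), 1 point per library. Lck is high in the HEL and anergic libraries, whose marker sums are 2.08 TPM or less, and low in the series 36 libraries with the highest sums, whereas the highest Lat value, 5.84 TPM, is in the library with the highest sum.

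Loss of Ikaros went with still more Lck after HEL. HEL loss libraries had 99.8, 80.2, 99.9, 67.1 and 107 TPM, against 67.5, 68.0, 83.0, 64.2 and 46.6 TPM in HEL controls. The groups overlapped, since loss replicates 2 and 4 lay below control replicate 3. The ratio of means was 1.38 (log2 difference 0.46 ± 0.15, limma adjusted p = 0.0269), and the call was lost without loss replicate 1, 3 or 5 or control replicate 5 (adjusted p up to 0.0650) and without the filter on low TPM (adjusted p = 0.0688).

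After CpG, Lck measured 9.58, 9.32, 16.9 and 16.2 TPM in loss libraries, against 2.81, 5.31, 7.76 and 10.1 TPM in controls. The library numbers form 2 sets, replicates 1 and 2 and replicates 3 and 4 of each genotype, and within each set both loss libraries were above both controls. The T cell marker sum was 0.581 to 0.785 TPM in loss and 0.187 to 0.449 TPM in control libraries of the first set, and 2.09 to 2.71 TPM in loss and 2.98 to 3.38 TPM in control libraries of the second, so it was higher in loss libraries in the first set and lower in the second. Of the 15 markers 10 were detected in loss libraries, where Cd3e was among the 5 at 0. The NK and cytotoxic sum was lower, and the dendritic sum higher, in loss libraries of both sets. The NK and cytotoxic sum was 2.23 to 2.41 TPM in loss and 3.37 to 3.9 TPM in control libraries of the first set, and 4.52 to 4.98 TPM in loss and 12.8 to 14.2 TPM in control libraries of the second. The sum of 7 dendritic markers, nearly all of it Flt3, was 30.8 to 38.5 TPM in loss and 19.7 to 27.7 TPM in control libraries of the first set, and 29.1 to 35.4 TPM in loss and 12.5 to 15.6 TPM in control libraries of the second. Myeloid marker sums overlapped in the first set, at 7.37 to 7.81 TPM in loss and 5.50 to 65.8 TPM in control libraries. In the second set they were lower in loss libraries, at 55.7 to 138 TPM, than in controls, at 320 to 445 TPM. B cell marker sums overlapped in the first set, at 3057 to 3514 TPM in loss and 3276 to 4678 TPM in control libraries. In the second set they were lower in loss libraries, at 2448 to 2610 TPM, than in controls, at 3344 to 3438 TPM. The part of these cell types in the CpG differences of Lck, Lyn, Blk and Fgr was not tested. Over both sets the log2 difference of 0.96 ± 0.33 was not called (adjusted p = 0.0849), and with a term for the set it was (adjusted p = 0.00379). In naive cells Lck was 15.9 and 13.2 TPM in loss libraries, against 26.4 and 10.6 TPM in controls, a difference of -0.20 ± 0.36 (limma adjusted p = 0.873).

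Anergic cells also had more Lck than HEL control cells as deposited, with a ratio of 1.47 (log2 difference 0.56 ± 0.17, limma adjusted p = 0.0242) and overlapping libraries. After median-ratio scaling this difference was 0.30 ± 0.18 and no longer called (adjusted p = 0.243), and the call was also lost with voom (adjusted p = 0.0968) and without HEL control replicate 4 or anergic replicate 1 or 3 (adjusted p up to 0.0811). The Lck row is marked in the files as overlapping another gene model, so some of its reads may belong to a neighbour.

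RefSeq promoter windows were available for 7 of the 9 genes, and those of Lck and Zap70 are shown because both genes were higher with loss of Ikaros after HEL. Each window is 300 bases long, 250 before and 50 after an annotated start, on the gene's strand of build GRCm38.p6, which is not the build of the expression files. Ikaros is known to bind DNA at the core TGGGAA, and capitals mark this motif on either strand (TGGGAA or TTCCCA). Lck has an upstream and a downstream start, at chr4:129573592-129573891 and chr4:129558323-129558622 on the minus strand.
Lck upstream: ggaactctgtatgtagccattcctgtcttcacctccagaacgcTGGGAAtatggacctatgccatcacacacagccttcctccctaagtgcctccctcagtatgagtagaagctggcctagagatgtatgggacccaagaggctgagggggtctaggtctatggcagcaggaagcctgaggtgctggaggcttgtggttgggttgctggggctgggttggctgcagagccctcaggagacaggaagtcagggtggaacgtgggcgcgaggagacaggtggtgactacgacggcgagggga
Lck downstream: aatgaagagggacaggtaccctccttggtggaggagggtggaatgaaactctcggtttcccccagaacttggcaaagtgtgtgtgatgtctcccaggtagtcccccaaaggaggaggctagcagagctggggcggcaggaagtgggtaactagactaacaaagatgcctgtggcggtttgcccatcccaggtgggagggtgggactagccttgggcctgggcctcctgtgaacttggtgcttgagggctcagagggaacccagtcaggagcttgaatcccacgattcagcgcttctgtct
The upstream window holds 1 match, which begins 207 bases before the start, and the downstream window holds none. Of all 32851 promoter windows 25.6% hold the motif, and so do 4 of the 10 windows of these genes (1 each of Lck, Zap70, Fgr and Lat). A match is a stretch of letters and says nothing of binding in these cells.

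Zap70, the kinase that follows Lck in T cells, behaved differently from Lck on antigen. HEL control libraries had 2.32, 2.04, 2.42, 2.34 and 3.22 TPM, against 6.38, 5.60 and 10.1 TPM in naive libraries of series 57. The groups did not overlap, and the ratio of means was 0.336 (log2 difference -1.24 ± 0.17, limma adjusted p = 0.000295), beyond the median of all genes of -0.16. Anergic libraries had 3.21, 6.44 and 6.21 TPM and overlapped the naive ones (log2 difference -0.42 ± 0.27, adjusted p = 0.400). Anergic cells were in turn above HEL control cells by 0.82 ± 0.19 (adjusted p = 0.00820), although anergic replicate 1 fell within the HEL control range. Zap70 was therefore lower in HEL control than in naive cells, where Lck was higher.

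Zap70 was higher with loss of Ikaros after HEL. HEL loss libraries had 4.95, 3.56, 6.96, 4.84 and 5.94 TPM, all above the highest HEL control library with 3.22 TPM. The ratio of means was 2.13 (log2 difference 0.83 ± 0.14, limma adjusted p = 0.000442), and the adjusted p stayed at or below 0.00173 when any 1 library was left out. Cd3e was at 0 reads in all 5 HEL loss libraries. The NK and cytotoxic marker sum was 6.53 to 12.6 TPM in HEL loss and 13.8 to 17.7 TPM in HEL control libraries, with Gzma, Gzmb and Ncr1 at 0 in both groups, and Prf1, the pore-forming perforin, made up most of it. The dendritic marker sum was 16.6 to 23.9 TPM in HEL loss and 4.38 to 7.58 TPM in HEL control libraries, with all 7 markers detected in both. Flt3 made up most of it in HEL loss, at 9.46 to 17.6 TPM, against 2.68 to 5.83 TPM in HEL control libraries. In naive libraries of series 57 Flt3 was 8.24 to 20.4 TPM. Siglech, a marker of plasmacytoid dendritic cells, was 1.49 to 2.90 TPM in HEL loss and 0 to 0.0386 TPM in HEL control libraries. Itgax, also on this list, overlapped, at 0.0550 to 0.354 TPM in HEL loss and 0.115 to 0.457 TPM in HEL control libraries. The part of these cell types in the HEL differences of Lck, Zap70 and Fgr was not tested. In naive cells both loss libraries, with 7.90 and 8.86 TPM, were above both controls, with 6.05 and 7.05 TPM, but the difference of 0.31 ± 0.23 was not called (adjusted p = 0.689). After CpG Zap70 was at trace levels in both genotypes, with 0.706, 1.23, 0.599 and 0.337 TPM in loss libraries, against 0.705, 0.339, 0.448 and 0.240 TPM in controls. The effect of loss after CpG minus that after HEL was -0.59 ± 0.23 and was not called (adjusted p = 0.0723), though it was with a term for the CpG set (adjusted p = 0.0473) and after median-ratio scaling (adjusted p = 0.0392). It was also called without HEL loss replicate 2 (adjusted p = 0.0294) or CpG loss replicate 2 (adjusted p = 0.0277). With voom on recovered reads it was -0.41 ± 0.51 and not called (voom adjusted p = 0.616). At such CpG levels the log2(TPM + 1) scale understates the effect of loss after CpG, which enters this difference.

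Zap70 has 3 annotated windows on the plus strand, and the first, at chr1:36761548-36761847, is shown as the only one of them with the motif.
Zap70 window 1: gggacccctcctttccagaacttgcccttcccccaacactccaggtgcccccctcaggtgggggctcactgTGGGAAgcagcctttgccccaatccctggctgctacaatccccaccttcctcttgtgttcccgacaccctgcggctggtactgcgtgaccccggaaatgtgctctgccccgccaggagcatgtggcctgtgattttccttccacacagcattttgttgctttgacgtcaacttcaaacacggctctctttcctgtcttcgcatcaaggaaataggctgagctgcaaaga
The match begins 179 bases before the start.

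Lat, the scaffold downstream of Zap70, was low in all libraries, with 2 to 67 recovered reads. HEL loss libraries had 2.09, 2.17, 2.39, 1.89 and 3.86 TPM, against 2.16, 1.42, 1.77, 2.14 and 1.26 TPM in HEL controls. The groups overlapped and the log2 difference of 0.33 ± 0.15 was not called (limma adjusted p = 0.10). Anergic libraries had 2.27, 1.88 and 1.84 TPM, within reach of the naive libraries of series 57 at 1.91, 2.00 and 2.50 TPM. CpG libraries had 0.298 to 0.826 TPM in the loss group and 0.226 to 0.424 TPM in the control group. The highest Lat value, 5.84 TPM, belonged to naive control replicate 2 of series 36, the library with the most Cd3e, and the part of T cell RNA in it was not tested. The Lat row is also marked as overlapping another gene model.

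Blk, a kinase found mainly in B cells, was lower with loss of Ikaros in both stimulated settings. HEL loss libraries had 284, 311, 286, 299 and 272 TPM, all below HEL controls at 342, 353, 352, 332 and 347 TPM. The ratio of means was 0.842 (log2 difference -0.25 ± 0.05, limma adjusted p = 0.00142). After median-ratio scaling the difference was smaller but still called (-0.18 ± 0.06, limma adjusted p = 0.0351). CpG loss libraries had 15.3, 20.4, 16.7 and 16.5 TPM, all below CpG controls at 29.9, 24.1, 26.0 and 28.3 TPM, with a ratio of 0.636 (-0.63 ± 0.11, adjusted p = 0.00539). The fall was larger after CpG: the difference between both effects was -0.38 ± 0.10 (adjusted p = 0.0146). Naive loss libraries had 268 and 268 TPM, against 314 and 277 TPM in controls, and were not called (-0.14 ± 0.14, adjusted p = 0.750).

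Blk was highest in anergic cells, with 454, 424 and 415 TPM, against 332, 345 and 298 TPM in naive libraries of series 57. The libraries did not overlap and the log2 difference was 0.41 ± 0.09 (limma adjusted p = 0.0349). This call was narrow, and it was lost without the filter (adjusted p = 0.0569), after median-ratio scaling (adjusted p = 0.0855), with voom on recovered reads (adjusted p = 0.0502), between libraries without Cre (adjusted p = 0.0877) and when naive replicate 1, 2 or 3 or anergic replicate 1 was left out (adjusted p up to 0.138). HEL control and naive cells differed by 0.09 ± 0.06 and were not called (limma adjusted p = 0.230). They were called after median-ratio scaling (0.28 ± 0.07, limma adjusted p = 0.00887) and with voom (0.22 ± 0.07, voom adjusted p = 0.0214). Anergic libraries were all above HEL controls (0.32 ± 0.07, adjusted p = 0.00512), a call lost after median-ratio scaling (0.06 ± 0.07, adjusted p = 0.545) and with voom (adjusted p = 0.113).

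Lyn, which both starts and restrains B cell receptor signals, changed with Ikaros in CpG cells. CpG loss libraries had 114, 109, 97.1 and 101 TPM, all below CpG controls at 144, 149, 164 and 164 TPM. The ratio of means was 0.677 (log2 difference -0.56 ± 0.08, limma adjusted p = 0.00178). HEL loss libraries, at 232, 208, 212, 232 and 230 TPM, overlapped HEL controls at 254, 236, 245, 225 and 233 TPM and were not called (-0.10 ± 0.05, 95% interval -0.21 to 0.02, adjusted p = 0.167). The difference between both effects was called, at -0.46 ± 0.09 (adjusted p = 0.00106). Lyn varied little across fresh cells of series 57, with 225 to 230 TPM in anergic, 225 to 254 TPM in HEL control and 215 to 217 TPM in naive libraries. The HEL control excess over naive cells of 0.14 ± 0.05 was not called (adjusted p = 0.0528), but after median-ratio scaling it was 0.33 ± 0.05 (adjusted p = 0.000934). It was called too with voom (0.27 ± 0.05, voom adjusted p = 0.00208) and without HEL control replicate 4 (limma adjusted p = 0.0375). Anergic and HEL control cells were not called apart as deposited (-0.06 ± 0.07, limma adjusted p = 0.462). Lyn was lower in anergic cells after median-ratio scaling (-0.32 ± 0.07, limma adjusted p = 0.0104) and with voom (-0.22 ± 0.08, voom adjusted p = 0.0460).

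Fyn, a kinase shared by B cells, T cells and neurons, ranged from 18.3 to 48.4 TPM over all 28 libraries. Loss of Ikaros left no called change: the log2 differences were 0.06 ± 0.08 after HEL (95% interval -0.11 to 0.22), -0.16 ± 0.12 after CpG (-0.43 to 0.12) and -0.27 ± 0.19 in naive cells (-0.72 to 0.17). Anergic libraries had 37.5, 45.7 and 48.4 TPM, against 36.9, 33.6, 38.4, 30.4 and 33.6 TPM in HEL controls, a difference of 0.33 ± 0.11 (limma adjusted p = 0.0292). That call was lost after median-ratio scaling (0.08 ± 0.11, adjusted p = 0.633), with voom (adjusted p = 0.209) and without HEL control replicate 2, 4 or 5 or anergic replicate 2 or 3 (adjusted p up to 0.0802), and the median of all genes in that comparison was 0.23. Naive libraries of series 57 were spread from 21.8 to 40.2 TPM, and anergic cells were not called against them (0.55 ± 0.21, adjusted p = 0.159). HEL control and naive cells were not called either (0.22 ± 0.16, adjusted p = 0.263), but were without naive replicate 3 (0.44 ± 0.12, adjusted p = 0.0208) and after median-ratio scaling (adjusted p = 0.0439). That replicate is the only library with Cre in either group.

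Fgr, a kinase best known from myeloid cells, was lower after HEL. HEL control libraries had 26.1, 24.6, 32.1, 23.2 and 20.2 TPM, all below naive libraries of series 57 at 47.0, 45.1 and 40.4 TPM. The ratio of means was 0.572 (log2 difference -0.80 ± 0.12, limma adjusted p = 0.000613), and after median-ratio scaling the difference was -0.61 ± 0.12 (adjusted p = 0.00306). Anergic libraries had 36.5, 39.1 and 34.8 TPM, which was above every HEL control library (0.54 ± 0.13, adjusted p = 0.00865). The call was lost after median-ratio scaling (0.29 ± 0.11, adjusted p = 0.0917) but kept with voom (0.40 ± 0.11, voom adjusted p = 0.0225). Against naive cells the anergic libraries were not called (-0.25 ± 0.10, limma adjusted p = 0.173). After CpG Fgr was at 2.93 to 5.11 TPM in loss and 1.33 to 3.45 TPM in control libraries.

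With loss of Ikaros after HEL, Fgr was 27.3, 34.0, 34.8, 25.7 and 36.1 TPM in loss libraries, which overlapped the controls. The difference of 0.31 ± 0.12 was not called (limma adjusted p = 0.0580), but it was after median-ratio scaling (adjusted p = 0.0237) with voom (adjusted p = 0.0301) and without HEL control replicate 3 or HEL loss replicate 1 or 4 (adjusted p down to 0.0146). The summed level of 10 myeloid markers was 187 to 297 TPM in HEL loss, 24.5 to 136 TPM in HEL control and 30.3 to 31.7 TPM in naive libraries of series 57. All 10 markers were detected in HEL loss and 9 in HEL control libraries, where S100a8, a neutrophil and monocyte gene, was at 0. S100a8 was also at 0 in the HEL loss libraries other than replicate 3, which had 0.251 TPM. Cd14, also on this list, was lower in HEL loss, at 0 to 0.0558 TPM, than in HEL control libraries, at 0.0568 to 0.207 TPM. Ly6c2, a gene of monocytes that some lymphocytes also express, made up most of the sum, with 156 to 255 TPM in HEL loss and 14.2 to 122 TPM in HEL control libraries. Cd68, a macrophage gene, was also higher in every HEL loss library, at 21.8 to 29.6 TPM, than in any HEL control, at 5.64 to 10.3 TPM. Adgre1, the macrophage antigen F4/80, was lower in every HEL loss library, at 0.127 to 0.275 TPM, than in any HEL control, at 0.287 to 0.511 TPM. In naive cells Fgr was 51.5 and 43.5 TPM in loss libraries, against 37.0 and 32.5 TPM in controls, and was not called (0.44 ± 0.19, limma adjusted p = 0.543). The myeloid marker sum was 206 to 306 TPM in those loss libraries and 120 to 169 TPM in those controls. Ly6c2 made up most of it, and S100a8 and Csf1r overlapped. The part of myeloid RNA in these Fgr differences was not tested.

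Yes1 and Src, kinases of most tissues, were at trace levels. Yes1 ran from 0.0434 to 0.796 TPM on 2 to 31 reads, and its highest values were in CpG loss libraries at 0.399 to 0.796 TPM and CpG controls at 0.425 to 0.567 TPM. Src ran from 0.0317 to 0.413 TPM on 1 to 13 reads. Without the filter on low TPM, Src was lower in HEL control libraries, at 0.109 to 0.142 TPM, than in naive libraries of series 57, at 0.260 to 0.413 TPM (log2 difference -0.22 ± 0.04, limma adjusted p = 0.00389). It was higher in anergic libraries, at 0.298 to 0.324 TPM, than in HEL controls (0.22 ± 0.02, adjusted p = 0.00171). Both rest on a sum of 29 reads in 3 anergic, 27 in 5 HEL control and 32 in 3 naive libraries, and a difference on the log2(TPM + 1) scale understates the change at such levels. No difference of Yes1 was called.

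One of 3 further lists, chosen like the members with earlier results known, held 17 Src family kinases and regulators that are not members. With loss of Ikaros after HEL, 12.9% of all genes were called higher and 24.1% lower. On this list 1 of the 16 tested genes was higher and 4 were lower (list median -0.0055, all genes -0.08). The higher one was an inhibitor, and the lower ones include both inhibitors and activators of Src kinases. Sit1, an inhibitory transmembrane adaptor, rose by 1.97 ± 0.08 (limma adjusted p = 1.38e-09). Of the lower ones, Unc119, an adaptor that activates Src kinases, fell by 0.58 ± 0.08 (adjusted p = 7.25e-05), Dok3, an adaptor that damps B cell receptor signals, fell by 1.39 ± 0.05 (adjusted p = 1.02e-09), and Csk, the kinase that shuts Src kinases off, fell slightly, by 0.22 ± 0.05 (adjusted p = 0.00282). After median-ratio scaling 3 were higher and 4 lower. After CpG 9.14% of all genes were called higher and 5.8% lower. On this list 1 of 15 was higher and 3 lower (median -0.34, all genes 0.02). Sit1 was the higher one here too (1.63 ± 0.27, adjusted p = 0.00521), and Ptprc, the phosphatase CD45 that activates Src kinases, was lower (-0.53 ± 0.09, adjusted p = 0.00486).

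Among 30 genes for Syk, Tec kinases, adaptors and substrates, 3 of 23 tested were higher and 5 lower with loss of Ikaros after HEL (median -0.11, all genes -0.08). Skap2, an adaptor bound by Src kinases, rose by 0.78 ± 0.07 (limma adjusted p = 1.52e-06), and the exchange factors Vav3 and Vav2 rose by 0.66 ± 0.11 (adjusted p = 0.000337) and 0.44 ± 0.07 (adjusted p = 0.000362). Grap2, an adaptor that links Lat to Slp-76 in T cells, fell by 0.66 ± 0.09 (limma adjusted p = 8.22e-05). After median-ratio scaling 4 were higher and 2 lower, where 1768 of all 10258 genes were higher and 1708 lower, against 1321 and 2469 as deposited. After CpG 2 of 24 were higher and 5 lower, against 9.14% and 5.8% of all genes (median -0.12, all genes 0.02). Ubash3a, a suppressor of T cell receptor signalling, rose by 1.53 ± 0.12 (adjusted p = 8.81e-05) and Vav3 by 0.67 ± 0.13 (adjusted p = 0.00962). Hcls1, a Src kinase substrate, fell by 0.50 ± 0.07 (limma adjusted p = 0.00212), and Syk, the B cell counterpart of Zap70, fell by 0.40 ± 0.08 (adjusted p = 0.0101). In naive cells 0 of 24 genes of this list, 0 of 16 of the kinase list and 0 of 13 receptors were called, in limma and with voom.

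Between anergic and naive cells 4.48% of all genes were called higher and 2.89% lower. Of the 23 tested genes of this Syk list 5 were higher and 1 lower (median 0.10, all genes 0.07). Grap2 was higher by 1.24 ± 0.10 (limma adjusted p = 0.000489), Ubash3b, a phosphatase that acts on Syk and Zap70, by 1.31 ± 0.12 (adjusted p = 0.000666) and the kinase Tec by 0.91 ± 0.10 (adjusted p = 0.00191). Sla, an adaptor that promotes the loss of antigen receptors from the cell, was lower (-1.04 ± 0.11, adjusted p = 0.00152). All 4 were called in the same direction after median-ratio scaling. The Grap2 row is marked as overlapping another gene model. On the kinase list 0 of 16 were higher and 1 lower, Sit1 (-1.77 ± 0.36, adjusted p = 0.0237).

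Between HEL control and naive cells, 2 of 23 genes of the Syk list were higher and 8 lower, and on the kinase list 1 of 16 was higher and 5 lower (medians -0.15 and -0.17, all genes -0.16). After median-ratio scaling these splits were 6 higher and 3 lower and 3 higher and 4 lower. The calls over all genes shifted the same way: 1036 of 10448 were higher and 3979 lower as deposited, and 2214 higher and 2004 lower after median-ratio scaling. Sit1 was lower (-1.41 ± 0.17, limma adjusted p = 0.000135). Pag1, the membrane anchor of Csk, was lower under each scaling (-0.98 ± 0.12, limma adjusted p = 0.000141; -0.80 after median-ratio scaling). Between anergic and HEL control cells 8 of 23 genes of the Syk list were higher and 1 lower, and 5 of 16 of the kinase list were higher and 0 lower (medians 0.21 and 0.19, all genes 0.23); after median-ratio scaling the splits were 4 and 2 on the Syk list and 0 and 0 on the kinase list, where all genes changed to 1073 higher and 1432 lower, against 3860 and 565 as deposited. Grap2 (1.15 ± 0.11, adjusted p = 0.000136) and Ubash3b (1.05 ± 0.13, adjusted p = 0.000427) were higher under each scaling.

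The third list held 14 receptors with tyrosine motifs that Src kinases phosphorylate. With loss of Ikaros after HEL 3 of 13 were higher and 5 lower, against 12.9% and 24.1% of all genes (median -0.04, all genes -0.08). Tyrobp, an ITAM adaptor known from NK and myeloid cells, fell by 1.92 ± 0.13 (limma adjusted p = 2.07e-07), Pirb, an inhibitory receptor, fell by 1.20 ± 0.10 (adjusted p = 1.59e-06), Lair1, an inhibitory collagen receptor, rose by 1.25 ± 0.12 (adjusted p = 4.76e-06) and Cd79a, an ITAM chain of the B cell receptor, fell by 0.37 ± 0.06 (adjusted p = 0.000188). The NK, dendritic and myeloid marker sums that differ between these groups are given with Zap70 and Fgr, and their part in the Tyrobp difference was not tested. After CpG 0 of 11 were higher and 4 lower, against 9.14% and 5.8% of all genes (median -0.30, all genes 0.02). The smallest adjusted p was that of Cd22, an inhibitory co-receptor that Lyn phosphorylates (-0.87 ± 0.09, limma adjusted p = 0.000516). Between anergic and naive cells 1 of 13 was higher and 2 lower, against 4.48% and 2.89% of all genes (median -0.10, all genes 0.07). The higher one was Cd72, an inhibitory co-receptor (1.14 ± 0.09, limma adjusted p = 0.000505), whose row is also marked as overlapping. HEL control cells had 1 of 13 higher and 4 lower against naive cells (median -0.06), where 9.92% of all genes were higher and 38.1% lower. Anergic cells had 1 of 12 higher and 2 lower against HEL control cells (median -0.01), where 36.8% of all genes were higher and 5.39% lower. After median-ratio scaling the receptor counts became 4 and 3 and 0 and 5.

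In the test of the CpG effect of loss minus the HEL effect, 15.2% of all genes were called higher and 7.19% lower. Of the kinases and regulators 1 of 16 was higher and 3 lower. On the Syk list 2 of 25 were higher and 5 lower, and 0 of 13 receptors were higher and 5 lower. The list medians were -0.20, -0.05 and -0.08, against 0.08 for all genes. Cd22 had the smallest adjusted p of the receptors (-0.83 ± 0.11, limma adjusted p = 3.59e-05), in the direction of Lyn and Blk.

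Each member above 1 TPM on average was also set beside the 9022 genes with a group mean of at least 5 TPM, by Pearson's correlation of log2(TPM + 1) over the 28 libraries. The libraries share stimulus, culture and series within groups, so these values describe likeness only. The genes most like Lck were Nrgn (r = 0.94), Renbp (r = 0.93) and Rgs3 (r = 0.89). Nrgn averaged 82.4 TPM in HEL loss, 143 TPM in anergic and 53.4 TPM in HEL control libraries, against 8.17 TPM in naive libraries of series 57. Zap70 was most like Agpat9 (r = 0.96), Vpreb3 (r = 0.95) and Mmp11 (r = 0.94), and Fgr shared Vpreb3 as its closest gene (r = 0.98). Vpreb3 averaged 222 TPM in HEL control and 800 TPM in naive libraries of series 57. Blk was nearest to H2-Ob (r = 1.00), Tcn2 and Dguok (r = 0.99 each), and Lyn to Trp53inp1 (r = 0.97), Scimp (r = 0.96) and Evl (r = 0.95). Likeness was weakest for Fyn, nearest to Ube4a (r = 0.85), Xiap (r = 0.85) and Aftph (r = 0.84). Lat was nearest to Tmem229b, Fth1 (r = 0.92 each) and Gpr183 (r = 0.91).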

How the data were processed

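The 28 RNA-seq libraries were analysed, and 8 ATAC-seq and 4 ChIP-seq samples were left out. Polyadenylated RNA was used, per the labels. The authors deposited TPM in 1 file per library. Per the submitters' processing notes, the tools include featureCounts 1.5.0, TopHat 1.4.1 with Bowtie, and SAMtools 1.4, with build mm9; the annotation and strandedness are not given in the sources used here. Whole reads were recovered from the TPM steps for 18843 of 18843 genes above 0 (tolerance 0.01 of a read).

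Groups were taken from the labels. Each comparison was fitted with limma 3.58.1 (R 4.3.3) on log2(TPM + 1), with trend estimation, a two-sided moderated test, Benjamini-Hochberg adjustment over all genes tested and a threshold of 0.05. A gene needed 1 TPM or more in n libraries, n being the size of the smaller group (4 for the CpG minus HEL difference). Values after ± are standard errors beside log2 differences and SDs beside TPM. The fits were tested on simulated data. P-values measure the spread between libraries, which may be technical. Alternatives were pseudocounts of 0.1 and 0.5, no filter, median-ratio scaling, voom on recovered reads, a block for the CpG sets, libraries without Cre and leaving out each library. Members and lists were chosen with earlier results of these data known. Named genes were the members, Cd3e, Ikzf1, and up to 4 called genes per list and comparison by smallest adjusted p. Promoters are RefSeq windows, GRCm38.p6. Results on some genes are not reported here, and those genes were left out of the lists and sums.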

Additional observations from a re-analysis of the deposited data

Results flagged for a closer look

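The CpG and HEL contrasts of Ikaros loss differed for 2 members by the test of the difference itself. Besides stimulus, the contrasts differ in genotype, in whether the controls carried Cre, in culture and in library series, which cannot be told apart. For Lyn the CpG effect minus the HEL effect was -0.46 ± 0.09 on the log2 scale (limma adjusted p = 0.00106), and for Blk it was -0.38 ± 0.10 (adjusted p = 0.0146). All 4 CpG loss libraries lay below all 4 CpG controls for both genes.

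Lat was 3.86 TPM in HEL loss replicate 5, against 1.89 to 2.39 TPM in the other HEL loss libraries. Cd3e was 0.273 TPM in CpG control replicate 4 (3 reads) and 0.0641 TPM in HEL control replicate 1 (1 read), against 0 in the other libraries of both groups. These 3 values stood apart in 3 of 38 groups examined, and chance alone flags about 1 in 20 groups. That rate does not apply to the Cd3e values, since any read stands apart where all other libraries are at 0.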

How the results depend on the processing

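Of the member values under alternatives, 613 kept their direction and side of the threshold, 29 lost a call, 20 gained one and 10 changed sign. Without the filter Yes1 and Src were tested too. The number of members called between anergic and naive cells, 2 as reported, was 1 without the filter, with median-ratio scaling, with voom and in libraries without Cre. It was 1 to 2 when a library was left out. Lck kept its call throughout, and Blk lost it. Without the filter 368 of all 16834 genes were higher and 211 lower. With voom 573 of 10519 were higher and 428 lower, and without Cre libraries 362 of 10613 higher and 210 lower. Between HEL control and naive cells the 3 calls became 5 without the filter and with voom and 6 with median-ratio scaling. Of all genes, 977 of 17129 were higher and 4070 lower without the filter. With voom 1660 of 10448 were higher and 2591 lower, and with median-ratio scaling 2214 higher and 2004 lower. Between anergic and HEL control cells the 5 calls became 2 with median-ratio scaling, 3 with voom and 3 to 5 when a library was left out (3 without HEL control replicate 4 or anergic replicate 3). With voom 2054 of all 10491 genes were higher and 915 lower there. With a replicate block for the CpG sets, 3 members were called after CpG, Lck being added, and 3 in the CpG minus HEL test. With that block 1282 of all 10386 genes were higher and 939 lower after CpG. In the CpG minus HEL test 1975 of 11050 were higher and 1017 lower. The library numbers do not pair animals per the labels. Across 10386 genes the deviations of the first set in loss and control libraries correlated at 0.65.

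Sign changes were all in values that were not called. Leaving out a library gave -0.43 to 0.013 for Lyn and -0.82 to 0.42 for Lck in naive loss, -0.13 to 0.019 for Lat between anergic and naive cells, and -0.19 to 0.026 for Lat and -0.054 to 0.26 for Fgr in the CpG minus HEL test. Lat was 0.056 between anergic and naive libraries without Cre, -0.034 between anergic and HEL control cells with median-ratio scaling, and 0.15 with a pseudocount of 0.1 and 0.20 with voom in the CpG minus HEL test. The causes were not tested.

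Counts over all genes moved by over 1.5 times in 4 comparisons. The CpG count of 1551 was 909 without loss replicate 3. The naive count of 2 was 17 with median-ratio scaling, 57 with voom and 0 under the others. The anergic against naive count of 775 was 353 without anergic replicate 1 and 323 to 394 without a naive library. The anergic against HEL control count of 4425 was 2505 with median-ratio scaling and 2800 without anergic replicate 1. Median-ratio scaling split the calls as 1768 higher and 1708 lower for HEL loss, 836 and 747 for CpG loss, 410 and 442 for anergic against naive, 2214 and 2004 for HEL control against naive, 1073 and 1432 for anergic against HEL control, and 1353 and 1063 for the CpG minus HEL test. Yes1, Src and Lat rest on few reads, which limits their precision.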
